A study of Mus musculus with 12 samples.

Results

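The enzymes of amino acid catabolism were followed through fasting and refeeding in mouse liver, as 42 genes chosen by their known function in the breakdown of tyrosine, proline, lysine, histidine, serine, branched-chain amino acids, glycine and cysteine. The rule that picks their rows uses gene names and no measured level, but the genes were proposed with earlier results of these data known. The 42 genes were named by 65 of the 66468 loci in the table that sets fasted against ad libitum-fed livers, and 39 of them by 61 rows of the table that sets refed against fasted livers. All libraries were total RNA-sequencing libraries of liver from wild-type C57BL/6 mice (C57BL/6N in the study's methods) aged 17 weeks on a control diet. Mice of the refed group (RF) went 16 h without food and then had food for 6 h, mice of the fasted group (FA) went 16 h without food, and mice of the ad libitum group (AL) fed freely. Each group had 4 libraries, 12 in all. No time of collection is stated in the sources used here, so the time of day and the feeding state cannot be told apart.

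The deposited levels are in FPKM, the sequenced fragments of a gene scaled to transcript length and to the mapped fragments of the library, and there is 1 pooled value per group. No value of a single library was used, so no spread between mice, no error and no test stands behind any difference given here, and the depth of the libraries is unknown. A difference is therefore described by its size: a locus counts as higher or lower where the groups differ by at least 1.5-fold and either has an FPKM of 1 or more. Each count is read beside the share of all loci that passed the same limit.

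The liver is the main site where amino acids are broken down. Transaminases, deaminases and dehydrogenases remove the nitrogen, which goes to the urea cycle, and the carbon skeletons pass to glucose, ketone bodies or the citric acid cycle. In fasting, amino acids released from muscle are a source of carbon for glucose made in the liver, whereas branched-chain amino acids are largely transaminated outside the liver before their keto acids are oxidised.

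The regions upstream of the start are shown for 4 members that differed most between FA and AL livers. Each line gives the 250 bases before a RefSeq start on the GRCm38.p6 build, 5′ to 3′ on the gene's own strand, which is the minus strand in all 4. They lie at chr5:123182724-123182973 for Hpd, chr6:23132987-23133236 for Aass, chr15:102205053-102205302 for Csad and chr11:11898145-11898394 for Ddc. Capitals mark TGACG, the core of the cAMP response element, on either strand, a motif added after it was seen here. Csad and Ddc each have another window that is not shown, and that of Csad holds no TGACG. The Csad start used here lies 328 bases upstream of its GENCODE start.
Hpd: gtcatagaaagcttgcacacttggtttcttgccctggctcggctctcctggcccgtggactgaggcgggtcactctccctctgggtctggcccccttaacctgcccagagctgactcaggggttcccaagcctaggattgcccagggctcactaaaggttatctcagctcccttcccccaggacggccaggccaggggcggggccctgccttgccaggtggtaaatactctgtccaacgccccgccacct
Aass: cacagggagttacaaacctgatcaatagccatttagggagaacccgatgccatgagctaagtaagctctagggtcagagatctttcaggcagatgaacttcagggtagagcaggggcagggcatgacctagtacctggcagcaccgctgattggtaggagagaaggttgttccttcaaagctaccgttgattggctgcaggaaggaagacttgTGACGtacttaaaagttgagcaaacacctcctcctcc
Csad: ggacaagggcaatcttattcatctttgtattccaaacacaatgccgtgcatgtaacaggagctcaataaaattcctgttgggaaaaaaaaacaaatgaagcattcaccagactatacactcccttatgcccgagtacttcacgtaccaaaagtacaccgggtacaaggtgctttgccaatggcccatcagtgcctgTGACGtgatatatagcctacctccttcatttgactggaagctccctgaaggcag
Ddc: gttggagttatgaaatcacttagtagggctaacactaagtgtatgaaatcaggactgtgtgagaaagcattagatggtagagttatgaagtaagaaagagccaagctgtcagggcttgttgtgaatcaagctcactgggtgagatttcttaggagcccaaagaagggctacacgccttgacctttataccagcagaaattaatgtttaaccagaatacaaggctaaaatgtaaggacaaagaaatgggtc

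A window was found for 37 of the 42 genes, as 44 windows among 32851. The full cAMP response element TGACGTCA was in 0 of the 44 windows, against 1.55% of all windows. The forkhead core GTAAACA was in 1 (Hibadh, 2.27%), against 3.17% of all windows. TGTTCT, a part of the glucocorticoid response element, was in 3 (Agxt, Bckdhb and Pccb, 6.82%), against 16.1%. These 3 motifs were searched on both strands. Another 2 motifs were added after the values were seen. TATAAA, read on the gene's strand only, was in 1 window (Ftcd, 2.27%), against 7.59% of all windows. TGACG, which overlaps the full element, was added because it had been seen in the Aass and Csad windows, and on both strands it was in 6 windows (13.6%), of Aass, Csad, Ftcd, Mcee, Pcca and Shmt1, against 17.8% of all windows. None of the 5 motifs was in a larger share of the members' windows than of all windows.

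Most of the enzymes had similar levels in fasted and ad libitum-fed livers. At the locus of highest level for each gene, 3 of 42 were higher in FA (Hpd, Aass and Bcat2, 7.14%) and 2 were lower (Csad and Ddc, 4.76%), while 37 passed neither limit. Over all 17226 loci compared, 6.83% were higher and 9.23% were lower in FA, so neither share of the members stood far from that of all loci. Within 1.2-fold of each other in FA and AL were 29 members (69.0%), against 58.2% of all loci. All loci include those near the minimum of 1 FPKM, and the shares were not matched for level. The median log2 ratio of FA over AL was 0.05 for the members, with 25 above 0 and 17 below, and -0.02 for all loci. The enzymes were abundant, with 10 at 100 FPKM or more in FA and 9 in AL, and 40 at 10 FPKM or more in FA and 39 in AL.

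**Figure D1:**
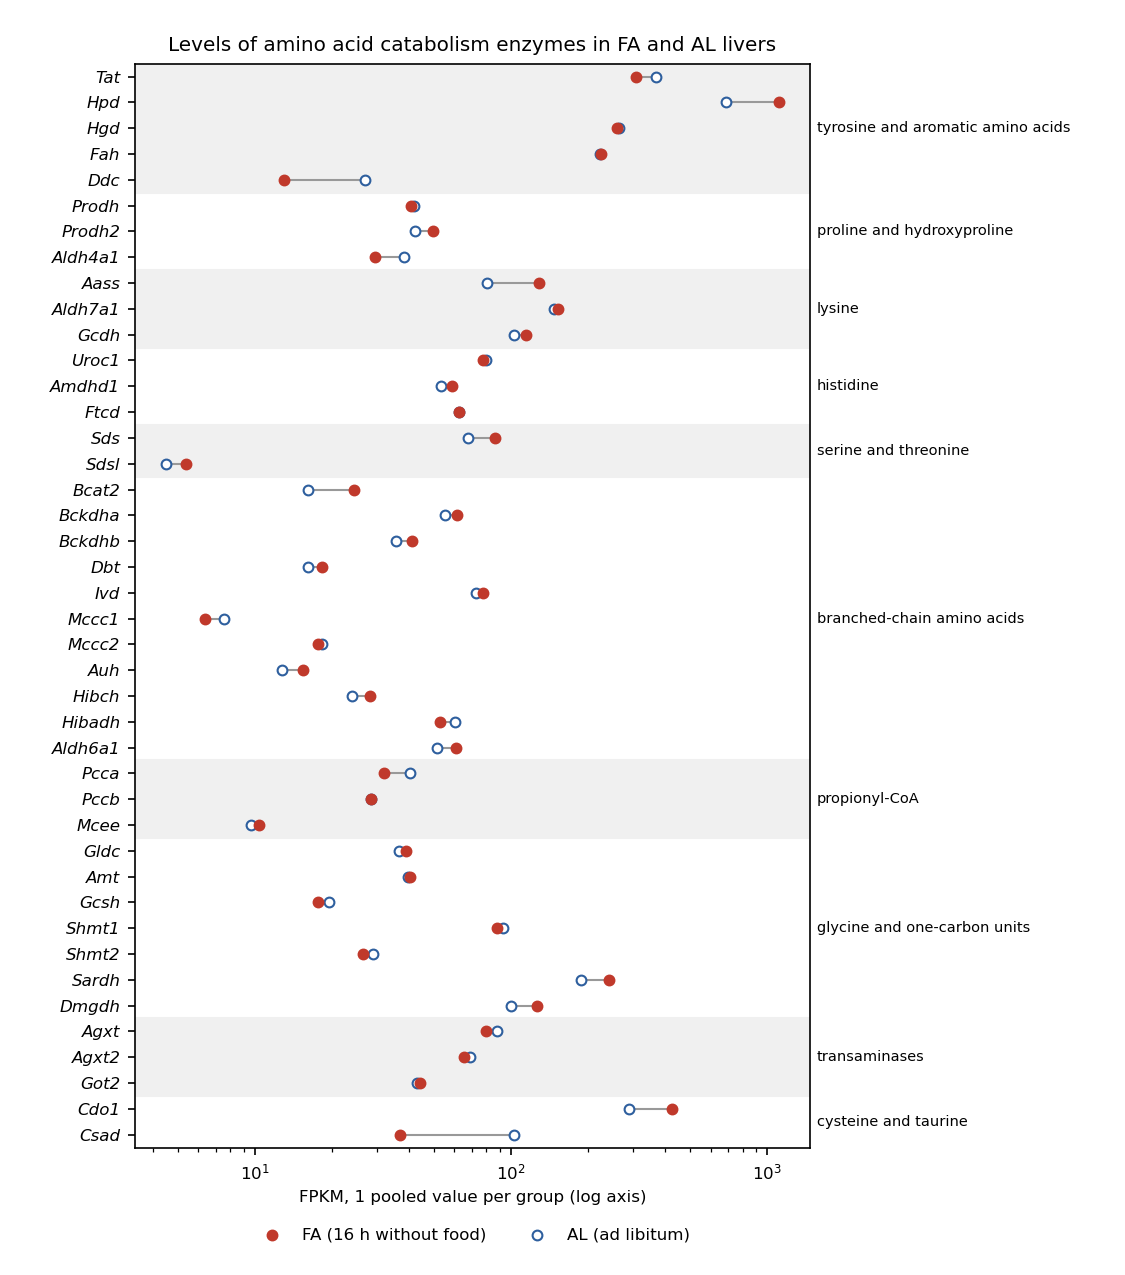
Pooled FPKM (log axis) of each of the 42 enzymes in FA livers (filled circles) and AL livers (open circles), 1 value per group with no error, grouped by pathway. Most pairs of circles touch, and the widest gaps are those of Csad (36.8 FPKM in FA and 103 in AL) and Ddc (12.9 in FA and 26.8 in AL).

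Tyrosine breakdown held the most abundant member and an enzyme that was lower in FA. Hpd encodes 4-hydroxyphenylpyruvate dioxygenase, which makes homogentisate, and lies on GRCm38 chr5:123171807-123182727. It had 1114 FPKM in FA livers and 689 FPKM in AL livers, a 1.62-fold higher level (log2 ratio 0.69). The enzymes on either side of it in the pathway differed less. Tat, the aminotransferase that starts the pathway, had 308 FPKM in FA and 369 FPKM in AL (log2 ratio -0.26). Hgd, homogentisate dioxygenase, had 259 FPKM in FA and 263 FPKM in AL. Fah, fumarylacetoacetase, which ends the pathway, had 224 FPKM in FA and 222 FPKM in AL. Ddc, the aromatic amino acid decarboxylase, which leads to amines rather than to carbon breakdown, lies on chr11:11814101-11898144. It was at 12.9 FPKM in FA livers and 26.8 FPKM in AL livers, a log2 ratio of -1.05.

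Of the lysine enzymes, the one that opens the pathway was higher in FA. Aass, the bifunctional aminoadipate semialdehyde synthase, lies on chr6:23072173-23132986 and had 129 FPKM in FA livers and 80.2 FPKM in AL livers (log2 ratio 0.68). Aldh7a1, the dehydrogenase that follows it, had 153 FPKM in FA and 147 FPKM in AL. Gcdh, glutaryl-CoA dehydrogenase, had 114 FPKM in FA and 103 FPKM in AL (log2 ratio 0.15).

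The pair of enzymes that lead cysteine towards taurine differed in opposite directions. Cdo1, cysteine dioxygenase, had 424 FPKM in FA livers and 289 FPKM in AL livers, 1.47-fold higher and just under the limit. Csad, cysteine sulfinic acid decarboxylase, which acts on the product of Cdo1, lies on chr15:102176999-102204724. It was at 36.8 FPKM in FA livers and 103 FPKM in AL livers, a log2 ratio of -1.48 and the widest difference among the 42. The level of Csad was 0.0868 of that of Cdo1 in FA and 0.356 of it in AL.

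Branched-chain amino acid breakdown counted 11 enzymes, of which 1 was higher in FA and 10 passed neither limit, with log2 ratios from -0.24 to 0.61. Bcat2, the mitochondrial branched-chain aminotransferase (chr7:45570153-45589711), had 24.4 FPKM in FA and 16.0 FPKM in AL, 1.52-fold higher and just past the limit. Its locus also names Hsd17b14, so the reads of the neighbours cannot be told apart. The subunits of the branched-chain keto acid dehydrogenase, the committed step, were close together in ratio. Bckdha had 61.3 FPKM in FA and 55.2 FPKM in AL, Bckdhb had 41.0 FPKM in FA and 35.4 FPKM in AL, and Dbt had 18.2 FPKM in FA and 16.1 FPKM in AL. In the leucine branch, Ivd, isovaleryl-CoA dehydrogenase, had 77.4 FPKM in FA and 72.7 FPKM in AL. The subunits of methylcrotonyl-CoA carboxylase were slightly lower in FA, with Mccc1 at 6.39 FPKM in FA and 7.54 FPKM in AL and Mccc2 at 17.6 FPKM in FA and 18.3 FPKM in AL. Auh, the hydratase that follows, had 15.4 FPKM in FA and 12.7 FPKM in AL. In the valine branch, Hibch, which frees hydroxyisobutyrate, had 28.1 FPKM in FA and 23.8 FPKM in AL. Hibadh, its dehydrogenase, had 52.6 FPKM in FA and 60.2 FPKM in AL, and Aldh6a1, which makes propionyl-CoA, had 60.9 FPKM in FA and 51.3 FPKM in AL. Propionyl-CoA is then carboxylated. Of the carboxylase subunits, Pcca had 31.8 FPKM in FA and 40.3 FPKM in AL (log2 ratio -0.34), and Pccb had 28.2 FPKM in FA and 28.3 FPKM in AL. Mcee, the epimerase after them, had 10.3 FPKM in FA and 9.64 FPKM in AL.

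**Figure D2:**
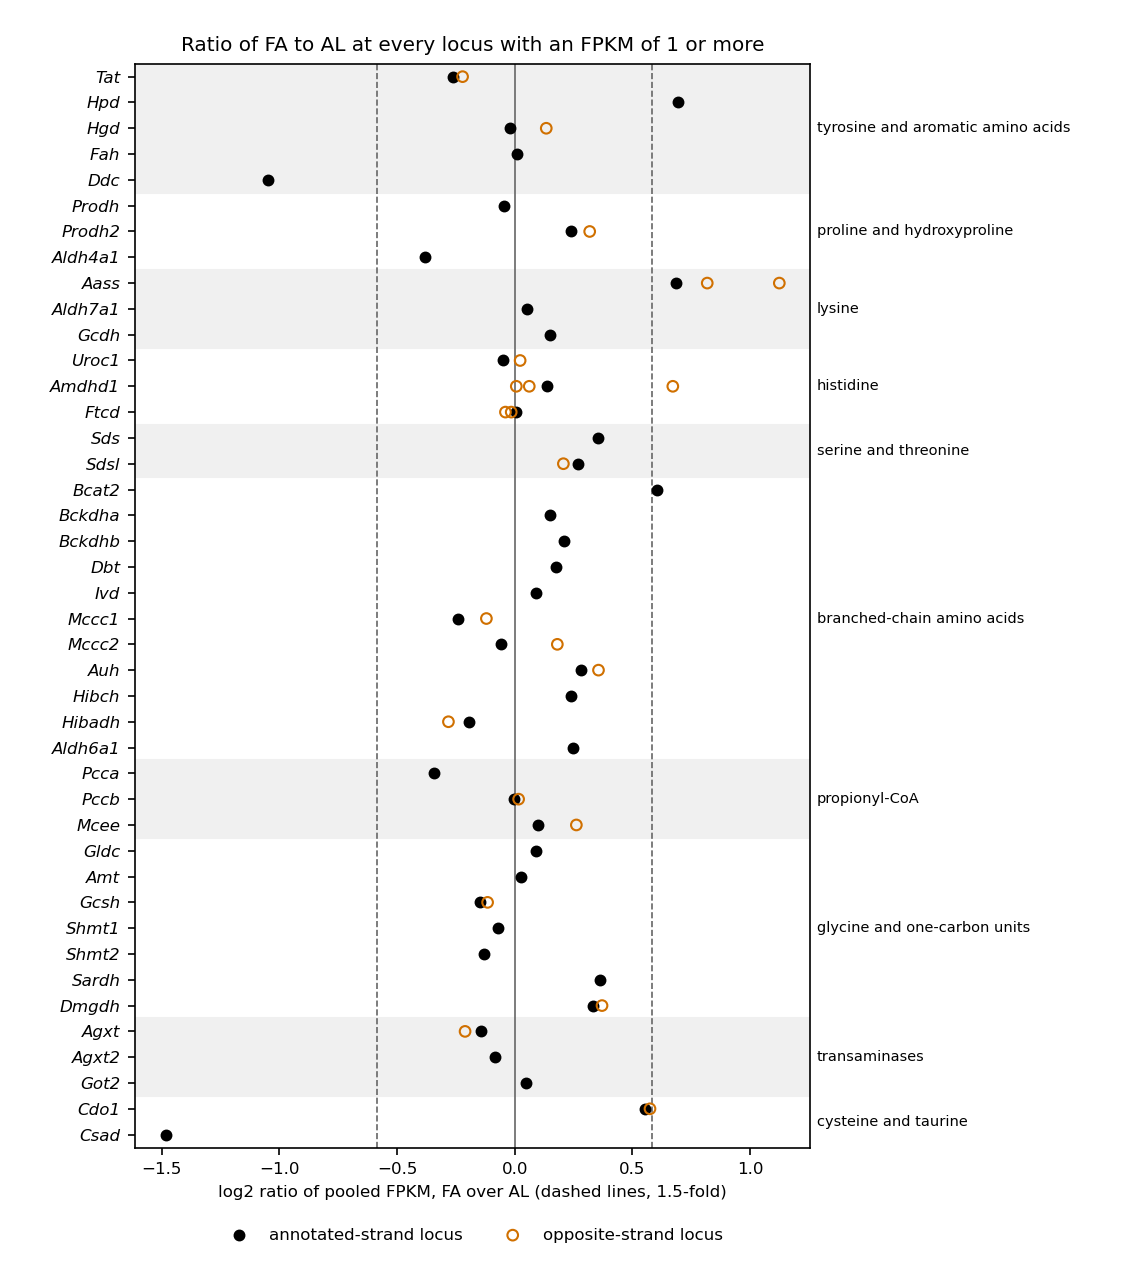
Log2 ratio of pooled FPKM, FA over AL, for each enzyme at the annotated-strand locus (filled) and at any opposite-strand locus of 1 FPKM or more (open); dashed lines mark 1.5-fold. Hpd, Aass and Bcat2 lie right of the lines and Ddc and Csad left of them. At Aass the open circles lie right of the filled one. At Amdhd1 the rightmost open circle does so, while the others lie left of the filled one.

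None of the histidine, proline, serine, glycine or transaminase members passed the limit. Uroc1, urocanate hydratase, had 77.2 FPKM in FA and 79.8 FPKM in AL. Amdhd1, imidazolonepropionase, had 58.4 FPKM in FA and 53.1 FPKM in AL, and Ftcd, which passes the formimino group to folate, had 62.4 FPKM in FA and 62.2 FPKM in AL. Prodh, proline dehydrogenase, had 40.5 FPKM in FA and 41.8 FPKM in AL, whereas Prodh2, which oxidises hydroxyproline, had 49.6 FPKM in FA and 42.1 FPKM in AL. Aldh4a1, the dehydrogenase that serves both, had 29.3 FPKM in FA and 38.1 FPKM in AL, at a locus that names Iffo2 and Tas1r2 among others. Serine dehydratase, Sds, which makes pyruvate, had 86.6 FPKM in FA and 67.8 FPKM in AL (log2 ratio 0.35). Its relative Sdsl was the lowest member, with 5.38 FPKM in FA and 4.47 FPKM in AL.

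The 7 glycine and one-carbon enzymes had log2 ratios between -0.15 and 0.36. Of the glycine cleavage system, Gldc had 38.8 FPKM in FA and 36.4 FPKM in AL, Amt had 40.3 FPKM in FA and 39.6 FPKM in AL, and Gcsh had 17.5 FPKM in FA and 19.4 FPKM in AL. The locus of Amt also names Rhoa. Of the serine hydroxymethyltransferases, the cytosolic Shmt1 had 88.0 FPKM in FA and 92.6 FPKM in AL, and the mitochondrial Shmt2 had 26.4 FPKM in FA and 28.9 FPKM in AL. The mitochondrial enzymes that demethylate the breakdown products of choline were both somewhat higher in FA. Sardh had 240 FPKM in FA and 186 FPKM in AL, and Dmgdh had 126 FPKM in FA and 99.6 FPKM in AL. Among the transaminases, Agxt, which clears glyoxylate, had 79.5 FPKM in FA and 87.9 FPKM in AL. Agxt2, which also acts on beta-aminoisobutyrate, had 65.3 FPKM in FA and 69.1 FPKM in AL, at a locus that also names Prlr. Got2, the mitochondrial aspartate aminotransferase, had 44.2 FPKM in FA and 42.7 FPKM in AL.

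**Figure D3:**
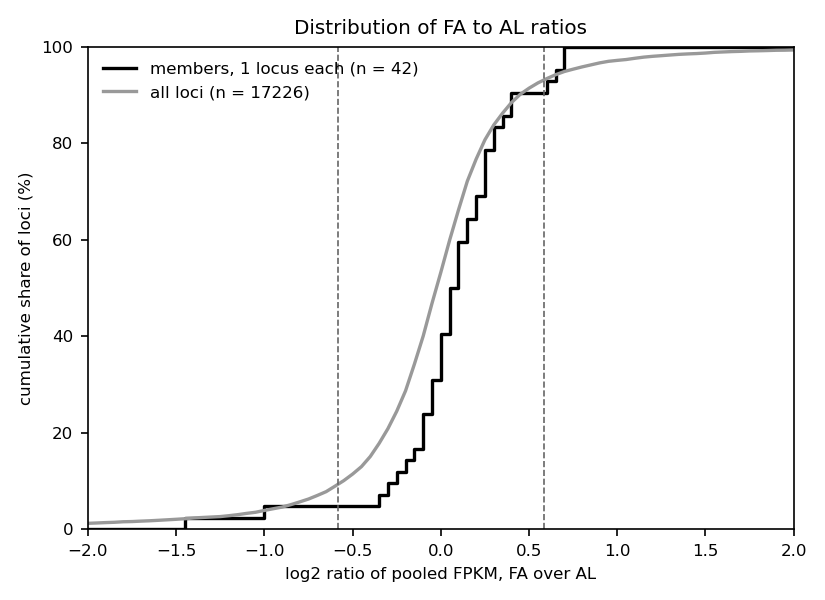
Cumulative share (%) of the 42 members (black) and of all 17226 loci compared (grey) by log2 ratio of pooled FPKM, FA over AL; dashed lines mark 1.5-fold. The black curve lies below the grey one around 0 and meets it near the right dashed line, with medians of 0.05 for the members and -0.02 for all loci.

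For 18 of the 42 genes, a further locus on the opposite strand carried the gene's name, 23 loci in all, of which 22 reached 1 FPKM. The strand of a locus was read from the order of locus numbers on each chromosome. At 20 of the 22, the log2 ratio of FA over AL lay within 0.3 of that at the annotated strand. Aass had 15.6 FPKM in FA and 8.86 FPKM in AL at one such locus (log2 ratio 0.82), and 13.7 FPKM in FA and 6.30 FPKM in AL at another (log2 ratio 1.12). Amdhd1 had 18.3 FPKM in FA and 11.5 FPKM in AL at one (log2 ratio 0.67), the widest departure, 0.53, from its annotated-strand locus. Its other opposite-strand loci had log2 ratios of 0.06 and 0.01. Whether these loci hold antisense RNA or reads of the gene itself was not tested.

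Refeeding could be compared less fully, because each row of that table holds 1 transcript of a locus, and Bcat2, Aldh4a1 and Agxt2 are named in none. At 31 of the 39 loci chosen above, its FA value was under 10% of the FA value of the whole locus. At these loci 13 members could be compared, of which 1 was higher and 3 were lower in RF, against 10.2% higher and 8.81% lower among all 10401 loci. Cdo1 was the only abundant one of the 4, with 199 FPKM in RF livers and 339 FPKM in FA livers (log2 ratio -0.77). Sds had 0.439 FPKM in RF and 1.19 FPKM in FA, and Ftcd had 1.34 FPKM in RF and 2.08 FPKM in FA. These transcripts held 1.37% of the FA level of the locus for Sds and 3.33% for Ftcd, so both ratios describe minor transcripts. Bckdha had 1.99 FPKM in RF and 0.00318 FPKM in FA at a transcript holding under 0.01% of the FA level of its locus, so its ratio describes a minor transcript and not the gene. Gcdh, which passed neither limit, had 40.6 FPKM in RF and 34.7 FPKM in FA, and Dbt had 11.2 FPKM in RF and 9.92 FPKM in FA. Their transcripts held 30.4% of the FA level of the locus for Gcdh and 54.4% for Dbt, and that of Cdo1 held 80.0%. These ratios too describe a part of the locus.

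The FA value agreed within 10% between the tables at 20 loci of 15 members, and there RF, FA and AL can be set side by side. Only that of Hpd was on the annotated strand, and the other 14 members were represented by an opposite-strand locus. At 1 locus per member, 0 of 15 were higher and 4 were lower in RF than in FA (Aass, Amdhd1, Cdo1 and Sdsl), against 9.1% higher and 8.11% lower among all 8338 agreeing loci. The median log2 ratio of RF over FA was -0.32 for the 15 members and 0.01 for all loci. At these 15 loci the median log2 ratio of FA over AL was 0.21, with 3 higher and 0 lower in FA. That median was 0.05 at the loci chosen for the 42 members, so these 15 loci do not stand for all the enzymes. The FA libraries serve both comparisons, so a value that is high in FA is high against RF and against AL alike.

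At these loci Amdhd1 and Aass differed most from FA among the 15 members. Amdhd1 had 7.02 FPKM in RF livers and 18.3 FPKM in FA livers (log2 ratio -1.38), and at its other loci 5.11 FPKM in RF and 9.03 FPKM in FA, and 4.82 FPKM in RF and 7.69 FPKM in FA. Aass had 7.70 FPKM in RF and 15.6 FPKM in FA (log2 ratio -1.02), and 5.34 FPKM in RF and 13.7 FPKM in FA at its other locus. Cdo1 had 45.3 FPKM in RF and 72.1 FPKM in FA (log2 ratio -0.67), and Sdsl had 1.08 FPKM in RF and 1.64 FPKM in FA (log2 ratio -0.60). Hpd passed neither limit, with 748 FPKM in RF and 1015 FPKM in FA (log2 ratio -0.44). These Hpd values are of 1 transcript, which held 91.1% of the 1114 FPKM of the whole locus in FA. Ftcd had 12.0 FPKM in RF and 15.1 FPKM in FA at its larger locus. The members of branched-chain and propionyl-CoA breakdown passed neither limit, with log2 ratios of RF over FA from -0.37 at Mcee to 0.05 at Mccc1. Hibadh had 17.0 FPKM in RF and 16.9 FPKM in FA, Pccb had 22.9 FPKM in RF and 23.2 FPKM in FA, and Mccc1 had 3.31 FPKM in RF and 3.21 FPKM in FA. Mccc2 had 1.68 FPKM in RF and 2.01 FPKM in FA, Auh had 1.66 FPKM in RF and 2.07 FPKM in FA, and Mcee had 2.15 FPKM in RF and 2.78 FPKM in FA. Gcsh had 5.76 FPKM in RF and 4.71 FPKM in FA, Dmgdh had 12.2 FPKM in RF and 13.2 FPKM in FA, and Agxt had 8.39 FPKM in RF and 8.82 FPKM in FA.

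**Figure D4:**
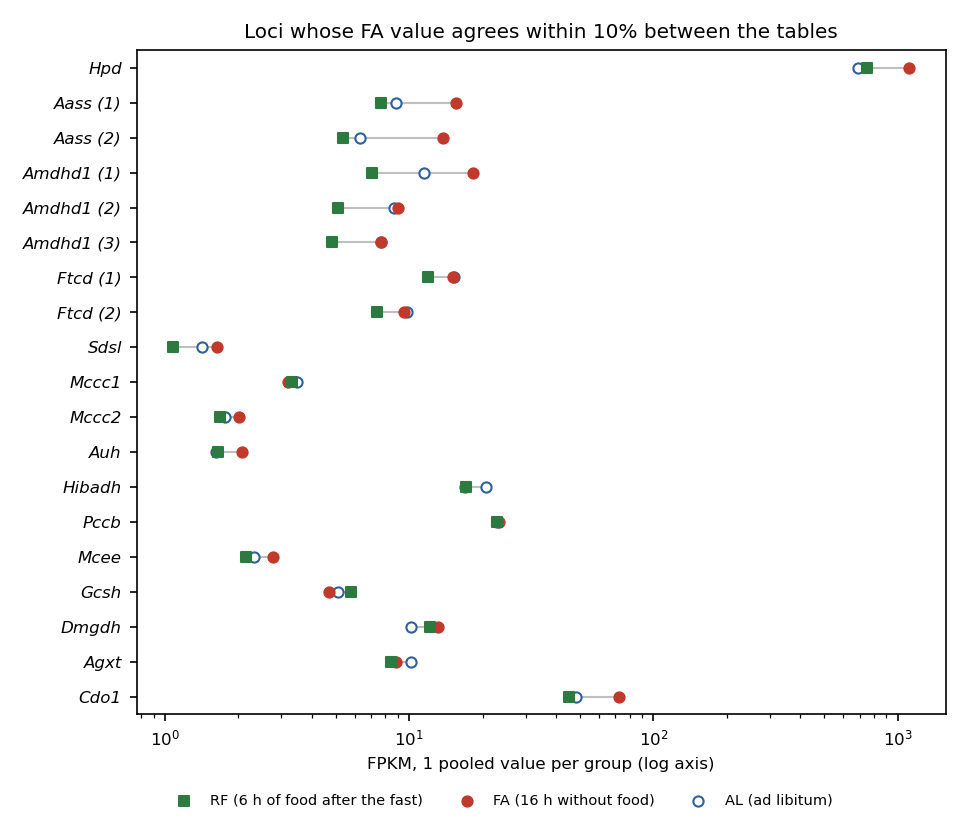
Pooled FPKM (log axis) in RF (squares), FA (filled circles) and AL (open circles) at the 19 loci of 15 members that had 1 FPKM or more and whose FA values agreed within 10% between the tables; FA is drawn from the FA and AL table, numbers in brackets tell loci of a gene apart, and there are no error bars. At Aass and Cdo1 the RF and AL values lie together below FA, and at the 3 Amdhd1 loci RF lies lowest.

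Set against AL at the same loci, 0 of 15 members were higher in RF and 1 was lower, against 5.28% higher and 7.3% lower among all 8259 loci. This was Amdhd1, with 7.02 FPKM in RF and 11.5 FPKM in AL (log2 ratio -0.71). Its other agreeing loci had 5.11 FPKM in RF and 8.65 FPKM in AL, and 4.82 FPKM in RF and 7.66 FPKM in AL, each lower by at least 1.5-fold. All of these are opposite-strand loci read in the same pooled libraries, so they are not separate evidence. The annotated-strand locus of Amdhd1 could not be set against RF. Hpd had 748 FPKM in RF and 689 FPKM in AL, Aass had 7.70 FPKM in RF and 8.86 FPKM in AL, and Cdo1 had 45.3 FPKM in RF and 48.4 FPKM in AL. For Hpd the RF value is of 1 transcript, with 91.1% of the FA level of the locus, and the AL value is of the whole locus. The RF and AL values come from separate tables, and no test was made across them.

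Other enzymes of amino acid breakdown, a list of 35, held 6 that were higher and 4 that were lower in FA of 32 compared, with a median log2 ratio of 0.04. Over all loci, 6.83% were higher and 9.23% were lower in FA. Ppm1k, the phosphatase that activates the branched-chain keto acid dehydrogenase, had 28.5 FPKM in FA and 12.7 FPKM in AL. Hsd17b10, which acts in isoleucine breakdown, had 134 FPKM in FA and 59.8 FPKM in AL. Acat1, the thiolase of isoleucine and ketone body metabolism, had 152 FPKM in FA and 97.5 FPKM in AL, and Dhtkd1, of lysine breakdown, had 15.1 FPKM in FA and 9.72 FPKM in AL. The others higher in FA were the aminotransferases Gpt2 and Got1. Of the 4 that were lower, Mmab, an enzyme of cobalamin handling, had 2.17 FPKM in FA and 5.96 FPKM in AL. Ethe1, of sulfide oxidation, had 19.8 FPKM in FA and 42.1 FPKM in AL. Qdpr, which recycles tetrahydrobiopterin, had 55.2 FPKM in FA and 116 FPKM in AL, and Hao1, glycolate oxidase, had 33.5 FPKM in FA and 68.5 FPKM in AL.

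Between RF and FA, 18 of these enzymes had an agreeing locus of sufficient level, of which 2 were higher and 5 were lower in RF, against 9.1% higher and 8.11% lower among all agreeing loci. For each enzyme named here, the agreeing locus was not the locus used between FA and AL, and its level was lower. Whether its ratio holds for the whole gene was not tested. Hal, histidase, had 8.27 FPKM in RF and 20.9 FPKM in FA, against 124 FPKM in FA at its locus of highest level. Ppm1k had 5.97 FPKM in RF and 17.2 FPKM in FA, and Got1 and Gpt2 were lower as well. Mmab had 2.87 FPKM in RF and 0.914 FPKM in FA, and Hao1 had 8.16 FPKM in RF and 5.18 FPKM in FA.

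In bulk liver, fewer cells of a type and less RNA per cell cannot be told apart. Of the hepatocyte markers, 6 of 7 could be compared and summed to 3579 FPKM in FA and 4223 FPKM in AL. Ttr alone was past the limit, with 1504 FPKM in FA and 2324 FPKM in AL, and the other 5 compared were above AL in FA, with log2 ratios from 0.06 to 0.25. Alb was listed at 0 in both groups, so a 0 in this table is no measure of absence. The sums for other cells were 16.1 FPKM in FA and 19.2 FPKM in AL for Kupffer cells, 30.3 in FA and 34.4 in AL for endothelium, 53.5 in FA and 60.2 in AL for stellate cells, and 716 in FA and 979 in AL for erythroid cells. Cholangiocyte markers summed to 2.21 FPKM in FA and 2.93 in AL, and lymphocyte markers to 0.264 in FA and 0.299 in AL. Of the markers of these other cells, Lyve1 of endothelium was higher in FA past the limit, and Col3a1 of stellate cells, Krt19 of cholangiocytes and Alas2 of erythroid cells were lower. Lyve1 and Krt19 were read at an opposite-strand locus, and Krt19 had 0.273 FPKM in FA. Hbb-bs, Hbb-bt, Dcn, Lrat, Des, Epcam and Sox9 were read at opposite-strand loci as well. Hbb-bs (527 FPKM in FA and 704 in AL) made up most of the erythroid sum, and Dcn (35.6 in FA and 35.2 in AL) most of the stellate sum. The remaining endothelial markers were lower in FA within the limit, with log2 ratios from -0.42 at Clec4g to -0.23 at Stab2. Above AL in FA were also Dcn (log2 ratio 0.02) and Des (0.32) of stellate cells. So were Epcam of cholangiocytes, Marco of Kupffer cells and Cd3e and Nkg7 of lymphocytes, all under 1 FPKM in both groups. Epcam had 0.886 FPKM in FA and 0.259 in AL, and Marco had 0.979 in FA and 0.365 in AL. Apart from these and Lyve1, the markers of these other cells were below AL in FA. The part of these differences in the values of the enzymes was not tested.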

How the data were processed

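Total RNA of 12 mouse liver libraries, 4 per group, was sequenced by the authors after ribosomal RNA depletion. According to the study's methods and processing notes, adapters were clipped by flexbar 3.4.0, Bowtie2 2.2.9 served to filter out ribosomal sequence, and STAR 2.6.0c placed the remaining reads on GRCm38/mm10. Transcripts were assembled and quantified with Cufflinks 2.2.1 and Cuffdiff on Ensembl release 90. The deposited FPKM values are 1 pooled value per group made by the authors, with 0 columns of single libraries, so depth, replicate spread and precision are unknown. The tables also hold the authors' own fold changes, test statistics, p-values and q-values, which were not used.

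Ratios were computed from the pooled FPKM with Python 3.11.15, pandas 2.3.3 and numpy 2.4.6, with a pseudocount of 0. The code of the calls was run on simulated pooled values with 2-fold differences. That run does not cover differences near 1.5-fold or the spread between mice. Groups were taken from the sample labels. For each gene the locus with the highest mean of FA and AL was used, and every member was named. Of the 42 loci, 38 name the member alone. From the related enzymes, those past 1.5-fold were named, up to 6 in each direction, except for an item that is not reported here. RF was set beside AL only where FA agreed within 10% between the tables, as a share of the larger value. Gene positions came from GENCODE release 21 on GRCm38, and sequences from RefSeq on GRCm38.p6. The members and lists were chosen with earlier results of these data known. Of 5 promoter motifs, 2 were added after the values were seen, and TGACG was picked because it had been noticed in the Aass and Csad windows. Alternatives were the fold, the minimum FPKM, the pseudocount, centring, the strand, shared loci, the agreement limit and, chosen after seeing the data, all loci of the members.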

Additional observations from a re-analysis of the deposited data

How the results depend on the processing

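No paired analysis was possible because the tables hold 1 pooled value per group, and for the same reason no replicate could be left out. Between FA and AL, 5 members passed 1.5-fold, 2 of them passed 2-fold (Csad and Ddc), and 8 loci passed when all loci of the members were counted. Between RF and FA, 4 members passed at the chosen loci, against 2 at 2-fold, 12 with a minimum of 0.1 FPKM, 1 with a minimum of 5 FPKM, and 7 loci when all agreeing loci were counted. Between RF and AL, 1 member passed, against 0 at 2-fold, 0 on the annotated strand alone, where only Hpd could be compared, and 3 loci when all were counted, all of Amdhd1. All loci were counted as an alternative chosen after seeing the data. The other alternatives kept these counts within 1.5 times, though not always the same members. With FA agreement required, the count between RF and FA stayed at 4, but Cdo1 alone was shared. The members were then Aass, Amdhd1, Cdo1 and Sdsl, all lower in RF, in place of Bckdha, Cdo1, Ftcd and Sds. For single members past the limit, 70 of 79 values under an alternative kept their direction and side of the limit, 9 kept only their direction, and 0 reversed. Many of these values could not change. Another minimum does not alter a ratio, and a member that failed it was left out of the tally. All 42 loci chosen between FA and AL already lay on the annotated strand. The tally is therefore no measure of precision. Bcat2 no longer passed with a pseudocount of 1 (log2 ratio 0.58), nor did Ftcd between RF and FA (-0.39). The log2 ratio of Bckdha between RF and FA was 9.29, against 4.34 with a pseudocount of 0.1 and 1.57 with a pseudocount of 1.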
